A study of Arabidopsis thaliana with 6 samples.

Results

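The genes carried by the plastid and mitochondrial genomes of Arabidopsis thaliana were examined in young flower buds. Members were all entries of the count tables whose locus ID begins with ATCG (plastid genome) or ATMG (mitochondrial genome), which gave 88 plastid and 120 mitochondrial genes, 208 of 27629 entries. RNA had been sequenced from 3 wild type libraries (label WT) and 3 transgenic libraries (label BnA9::BnMAGL8.1), all in the Columbia background, from buds with anthers of stages 6 to 9, on plants kept at 23 °C with 16 h of light and 8 h of dark. In the transgenic plants a monoacylglycerol lipase gene of rapeseed, BnaC.MAGL8.a, is driven by the BnA9 promoter. This promoter works in the tapetum, the cell layer that lines the pollen sac. The number of transgenic lines and of plants per replicate is not given in the sources used here. All p-values therefore refer to the spread among these 6 samples.

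Plastids and mitochondria keep small genomes of their own, left from the bacteria from which they descend, while most of their proteins are encoded in the nucleus. The plastid genome encodes mainly parts of the photosynthetic complexes, of the plastid ribosome and of a bacterial-type RNA polymerase, and the mitochondrial genome encodes subunits of the respiratory chain and the ATP synthase, factors of cytochrome c maturation and some ribosomal proteins. Their transcripts are made in part by phage-type RNA polymerases encoded in the nucleus, and in plants most of them carry no long poly(A) tail, a tail that many library kits select for. Whether poly(A) RNA was selected is not given in the sources used here. In Arabidopsis a large copy of the mitochondrial genome has also been inserted into chromosome 2.

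The locus IDs of the members could not be matched to the organelle genes of the reference annotation (TAIR10.1, RefSeq), which uses other IDs: 0 of 208 matched. Names were taken only from notes in that annotation, in which nuclear genes cite the organelle locus they resemble most. These notes give a function for 6 plastid and 23 mitochondrial members, say that the protein is unknown for 21 mitochondrial members, and leave the others without a name. The other members are therefore given by locus ID alone. The rows matched to the reference included 0 annotated as rRNA or tRNA, and the members, being unmatched, could not be checked for this.

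The mitochondrial copy on chromosome 2 bears on what these counts can show, and 3 genes of it are printed for that reason. Stretches of at least 150 bases and at least 95% identity to the mitochondrial genome covered 270306 bases of chromosome 2 in this build, and 72.9% of the 367808 bases of the mitochondrial genome had such a copy. The first 120 bases of atp8, a subunit of the membrane part of ATP synthase, are shown with the start codon in capitals, first from the mitochondrial genome (247373 to 247492, minus strand; the gene that the notes pair with ATMG00480) and then from the nuclear gene AT2G07707 (chr2:3386292-3386411, plus strand). The same 120 bases of atp9, the ring subunit of ATP synthase, follow from the mitochondrial genome (271066 to 271185, minus strand; ATMG01080) and from AT2G07671 (chr2:3251961-3252080, minus strand).
atp8, mitochondrial genome: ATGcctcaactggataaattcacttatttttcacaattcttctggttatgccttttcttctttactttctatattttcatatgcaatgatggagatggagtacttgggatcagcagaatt
atp8, AT2G07707: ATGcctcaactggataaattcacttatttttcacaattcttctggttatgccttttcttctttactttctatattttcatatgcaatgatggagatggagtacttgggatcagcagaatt
atp9, mitochondrial genome: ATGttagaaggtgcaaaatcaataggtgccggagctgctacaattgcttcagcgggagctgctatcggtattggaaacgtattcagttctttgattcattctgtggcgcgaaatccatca
atp9, AT2G07671: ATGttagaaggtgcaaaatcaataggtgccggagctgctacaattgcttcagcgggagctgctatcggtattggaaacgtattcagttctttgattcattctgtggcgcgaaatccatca

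Each of these pairs was identical over the whole gene, 477 bases of atp8 and 225 bases of atp9. Of 15 comparisons of a mitochondrial gene with a nuclear gene whose note cites the matching member, 13 were identical over the whole stretch compared. The lowest identity was 99.84%. For nad1 (ATMG01275) that stretch was 385 bases, which may be only a part of the gene. The gene ccmC, which encodes a factor of cytochrome c maturation, has copies in a pair of nuclear genes and is printed to show how little the less similar copy differs. The stretch of 120 bases is from the mitochondrial genome (308787 to 308906, plus strand; ATMG00900), from AT2G07681 (chr2:3290720-3290839, plus strand) and from AT2G07771 (chr2:3239855-3239974, minus strand), with the 1 base that differs between them in capitals.
ccmC, mitochondrial genome: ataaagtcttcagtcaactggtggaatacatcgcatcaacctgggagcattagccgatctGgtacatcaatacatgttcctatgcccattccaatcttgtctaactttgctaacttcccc
ccmC, AT2G07681: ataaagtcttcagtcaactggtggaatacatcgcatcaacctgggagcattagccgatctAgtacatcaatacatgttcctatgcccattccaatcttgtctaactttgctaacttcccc
ccmC, AT2G07771: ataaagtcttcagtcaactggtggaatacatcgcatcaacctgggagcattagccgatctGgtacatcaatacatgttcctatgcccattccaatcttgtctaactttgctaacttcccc

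Within the plastid genome, ndhB, rpl2, rpl23, rps7 and ycf2 are each present in 2 copies of identical sequence, since the genome carries a large inverted repeat. The first 120 bases of rpl2, which encodes ribosomal protein L2, are printed once, with the start codon in capitals, because positions 85724 to 85843 (minus strand) and 152806 to 152925 (plus strand) of the plastid genome hold the same letters.
rpl2, both plastid copies: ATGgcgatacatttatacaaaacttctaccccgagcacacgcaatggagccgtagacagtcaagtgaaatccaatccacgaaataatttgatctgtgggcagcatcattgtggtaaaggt

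The transgene and bud markers were read first as a check of the labels. The 1 entry without an Arabidopsis locus ID, read as the transgene, was counted 5552, 853 and 9594 times in the transgenic replicates and 0 times in the wild type. Of 7 flower bud and tapetum markers, 6 could be tested, and DYT1, an early regulator of the tapetum, had 0 counts in every library. PI, which specifies petals and stamens, was at 196 to 270 CPM (counts in 1000000 counts of a library, here after TMM scaling), and A9, a tapetum gene, at 214 to 662 CPM. Without that scaling, the 7 markers summed to 818, 1034 and 1206 CPM in the wild type and 850, 633 and 693 CPM in the transgenic replicates. All 6 tested markers had a lower estimate in the transgenic buds, against 52.1% of all 18642 genes tested, but their sizes differed. The log2 fold change of transgenic over wild type was -0.0071 for AP3, -0.023 for AG, -0.063 for PI and -0.20 for MS1. It was -0.72 for A9 and -0.77 for AMS, a regulator of the tapetum. Of the 6 markers, 0 passed an adjusted p of 0.05 (edgeR) and 1, AMS, was lower at an unadjusted p under 0.05, against 4.26% of all genes.

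Organelle genes took a very small share of the counts. The 88 plastid genes held 4015 counts and the 120 mitochondrial genes 5268 counts over the 6 libraries, whose totals lay between 13519945 and 14729927. The share of a library was 0.00382% to 0.00629% for the plastid genome and 0.00541% to 0.00761% for the mitochondrial genome. The summed plastid level was 51.6, 49.0 and 38.2 CPM of the library total in the wild type (replicates 1, 2 and 3), and 42.2, 62.9 and 44.5 CPM in the transgenic buds. Transgenic replicate 2 was the highest and wild type replicate 3 the lowest, and the remaining libraries of both genotypes lay between them, so the genotypes overlapped. Transgenic replicate 2 was also the transgenic library with the fewest transgene counts, and the part of this in its plastid share was not tested.

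The summed mitochondrial level was 56.4, 73.6 and 54.1 CPM in the wild type replicates and 57.8, 61.9 and 76.1 CPM in the transgenic replicates. Here wild type replicate 2 and transgenic replicate 3 stood above the other 4 libraries, and the genotypes overlapped again. The counting intervals (Wilson, 95%) were narrower than the spread within a genotype: they ran from 58.9 to 67.2 CPM for the plastid share of transgenic replicate 2 and from 35.1 to 41.6 CPM for that of wild type replicate 3. They cover counting error only.

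**Figure D1:**
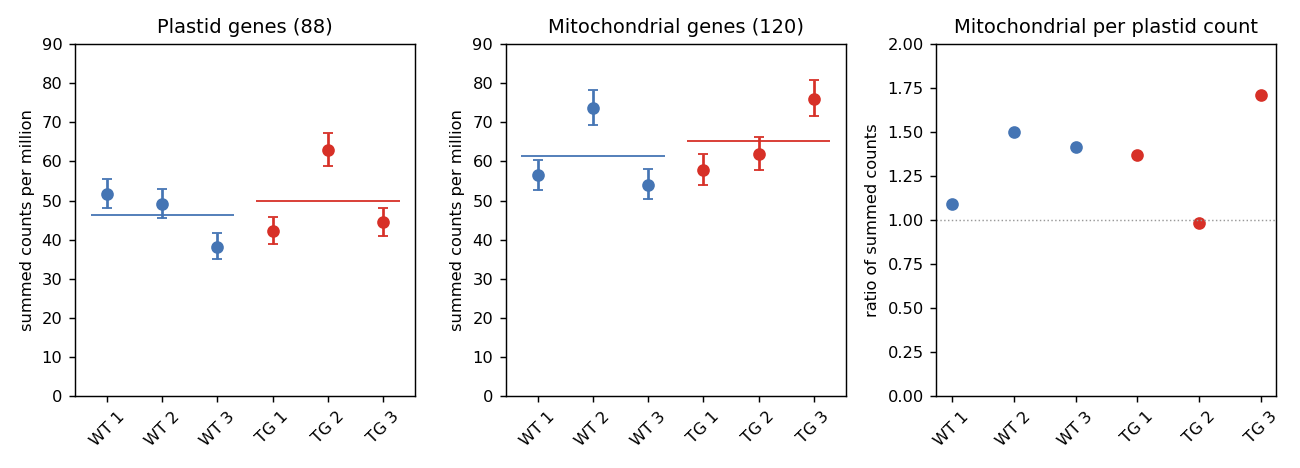
Summed CPM of the plastid and mitochondrial genes in each library, and the ratio of mitochondrial to plastid counts (vertical axes), by library (horizontal axis; WT, wild type in blue; TG, transgenic in red). Bars are 95% Wilson intervals and horizontal lines genotype means. The genotypes overlap in each panel, and the ratio is lowest, 0.984, in transgenic replicate 2.

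The plastid level was 46.3 ± 7.105 CPM in the wild type and 49.9 ± 11.4 CPM in the transgenic buds (SD, n = 3 each), a difference of 3.599 CPM that was smaller than either SD (two-sided exact permutation test, p = 0.8). The mitochondrial level was 61.4 ± 10.7 and 65.2 ± 9.58 CPM (SD, n = 3 each), a difference of 3.89 CPM that was also within the spread (two-sided exact permutation test, p = 0.5). With 3 libraries against 3, the smallest p that this test can give is 0.1. In whole buds, fewer cells of a type and less RNA per cell cannot be told apart. The direction of both differences rested on single libraries, since the plastid difference was -2.93 CPM without transgenic replicate 2 and -0.44 CPM without wild type replicate 3, and the mitochondrial difference was -1.51 CPM without transgenic replicate 3.

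The 2 genomes did not rise and fall together across libraries. Mitochondrial counts per plastid count were 1.09, 1.501 and 1.42 in the wild type replicates and 1.37, 0.984 and 1.71 in the transgenic replicates. The mitochondrial genome thus had more counts than the plastid genome in 5 of 6 libraries, and transgenic replicates 2 and 3 held the lowest and the highest ratio of all.

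Counts were concentrated in a few loci of each genome. The 3 members with the most counts held 29.5% of the counts of the plastid genome and 29.5% of those of the mitochondrial genome, and the first 8 held 54.5% and 48.6%. At the other end, 6 plastid and 15 mitochondrial members had no count in any library, and 29 plastid and 47 mitochondrial members had a count in every library. A library with 0 counts of a gene allows a level of up to 0.204 to 0.222 CPM (3 counts of its total), so these members were not detectable at this depth. Members are ranked here by counts and not per length, because a length could be paired with only 14 of them through the notes, so the order is that of reads and not of transcript levels. Per length the order can turn: ATMG01190 (1524 bases of atp1) had more counts than ATMG01080 (225 bases of atp9), but 27.7 against 148 counts per kb.

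Among plastid genes, ATCG01020 ranked first, with 66, 70 and 82 counts in the wild type replicates and 63, 112 and 51 in the transgenic replicates. ATCG00490 followed with 97, 81 and 33 counts in the wild type and 49, 119 and 44 in the transgenic replicates. ATCG00020 had 38, 66 and 44 counts in the wild type and 30, 99 and 40 in the transgenic replicates. Each of these 3 loci was highest in transgenic replicate 2, the library with the highest plastid share, and the 3 loci with the most counts of that library held 37.5% of its plastid counts, against 22.7% to 32.6% for the first 3 loci of each other library. The first and second place changed between libraries, and their transgenic SDs of 32.3 and 41.9 counts were far larger than the distance between their means of 75.3 and 70.7 counts.

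ATCG00670, named in the notes as the plastid-encoded ClpP, the proteolytic subunit of the Clp protease that degrades proteins of the plastid stroma, held rank 4. It had 62, 45 and 43 counts in the wild type and 26, 37 and 41 in the transgenic replicates, so every wild type library was above every transgenic library. ATCG01310, named as ribosomal protein L2, held rank 8 with 34, 31 and 14 counts in the wild type and 22, 27 and 23 in the transgenic replicates, and the genotypes overlapped. The other named plastid genes had few counts: ATCG00530, a CemA-like protein of proton extrusion, had 3 to 20 counts per library, ATCG00660, ribosomal protein L20, 2 to 6, and ATCG00430, given in the notes as photosystem II reaction center protein G, 0 to 6. ATCG00750, ribosomal protein S11, had 4 counts in wild type replicate 1 and 0 in the other libraries.

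Among mitochondrial genes, ATMG00030 ranked first, with 108, 134 and 63 counts in the wild type and 146, 100 and 179 in the transgenic replicates. ATMG01370 was second, with 88, 85 and 79 counts in the wild type and 74, 97 and 88 in the transgenic replicates. These loci, neither of which has a name in the notes, took the first and second place in all 6 libraries, and changed places in 1 of them, wild type replicate 3. Their spread differed: the wild type SD was 35.9 counts for ATMG00030 and 4.58 counts for ATMG01370.

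ATMG00180, a factor of cytochrome c maturation, held rank 3 with 45, 83 and 41 counts in the wild type and 42, 46 and 56 in the transgenic replicates. Wild type replicate 2 stood above the other 5 libraries. Of the ATP synthase subunits, ATMG01190, subunit 1 of the catalytic part, had 47, 38 and 34 counts in the wild type and 33, 51 and 50 in the transgenic replicates. ATMG01080, subunit 9, had 25, 44 and 45 counts in the wild type and 16, 32 and 38 in the transgenic replicates. Both sets of libraries overlapped between genotypes. The loci without a name at ranks 5 to 8, ATMG00660, ATMG00690 and ATMG00160, had 15 to 59 counts per library.

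**Figure D2:**
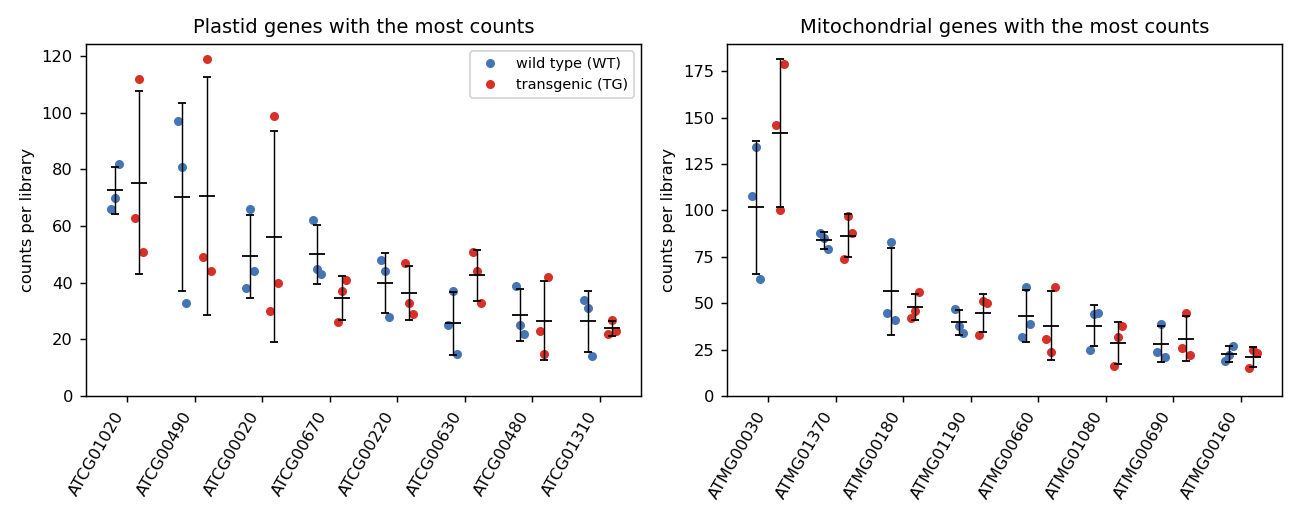
Counts per library (vertical axis) of the 8 plastid and 8 mitochondrial genes with the most counts (horizontal axis), with wild type libraries in blue and transgenic libraries in red. Black marks are means with SD (n = 3). The genotypes are separate for ATCG00670, where the wild type libraries start at 43 counts and the transgenic libraries end at 41, and ATMG00030 and ATMG01370 stand above the other mitochondrial genes.

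Of the first 8 loci of the wild type, 7 were also among the first 8 of the transgenic buds in each genome. The exceptions were ATCG01310 in the wild type against ATCG00280 in the transgenic buds, and ATMG00160 against ATMG00670. Counts in 1 genotype alone were seen in 8 plastid and 9 mitochondrial members in the wild type and in 7 and 11 members in the transgenic buds, but none of them had more than 11 counts over its 3 libraries. The share of other genes with counts this low that do the same was not computed, so these numbers are not read as a difference between genotypes.

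The members were grouped by the roles that the notes give. The notes of 5 loci (ATMG00410, ATMG00480, ATMG01080, ATMG01090 and ATMG01190) give an ATP synthase subunit, with subunit 9 for both ATMG01080 and ATMG01090. These loci together had 140, 140 and 113 counts in the wild type and 108, 138 and 142 in the transgenic replicates. That was 9.30 ± 0.876 CPM against 9.44 ± 1.29 CPM (SD, n = 3 each), and 14.8% of all mitochondrial counts. The 6 loci whose notes give a protein of the respiratory chain, or one like it, were apocytochrome b (ATMG00220), a cytochrome b/b6 protein (ATMG00590), cytochrome c oxidase subunit 3 (ATMG00730), NADH dehydrogenase subunits (ATMG00990 and ATMG01275) and a protein like the transmembrane domain of cytochrome c oxidase subunit II (ATMG01280). Together they had 2.04 ± 0.0889 CPM in the wild type and 2.19 ± 0.787 CPM in the transgenic buds. ATMG01280 had the most counts of them, with 13, 17 and 15 in the wild type and 8, 8 and 25 in the transgenic replicates. In this group the 3 wild type libraries were nearly equal, with 29, 28 and 29 counts, and the transgenic libraries, with 22, 26 and 42 counts, lay on both sides of them.

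The 3 factors of cytochrome c maturation had 4.28 ± 1.83 and 3.68 ± 0.703 CPM, and the 4 mitochondrial ribosomal proteins 1.18 ± 0.730 and 1.39 ± 0.340 CPM, in the wild type and the transgenic buds (SD, n = 3 each). The 3 plastid ribosomal proteins had 2.18 ± 0.870 and 1.95 ± 0.175 CPM. In none of these role groups were the libraries of one genotype all above those of the other.

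The genotypes were next compared gene by gene. After edgeR's filter on low counts (minimum count 10, minimum total 15), 15 plastid and 25 mitochondrial members were tested, and 73 and 95 members were too low. Over all 18642 genes tested, 0.0161% had an adjusted p under 0.05 (edgeR's quasi-likelihood test with Benjamini-Hochberg adjustment), and among the members tested there were 0 in either genome. At an unadjusted p under 0.01 there were 0 members, against 1.44% of all genes, and at an unadjusted p under 0.05 also 0, against 6.84%. DESeq2 likewise gave 0 of the same members at each of these thresholds, against 0.302%, 1.68% and 5.48% of the genes it tested. The smallest adjusted p was 0.743 among plastid and 0.759 among mitochondrial genes (edgeR).

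The estimated log2 fold change of transgenic over wild type was above 0 for 10 of 15 plastid and 14 of 25 mitochondrial members, against 47.9% of all genes tested. The median was 0.11 in the plastid and 0.12 in the mitochondrial set, against -0.015 over all genes. These medians were not tested. They are smaller than the pooled SD of the log2 share among libraries of a genotype, 0.275 for the plastid and 0.224 for the mitochondrial genome. The standard error of a single member, which is not the error of such a median, had a median of 0.46 in the plastid and 0.44 in the mitochondrial set. Over all genes it was 0.24. Changes of nearly 2 standard errors, as in ATCG00630 and ATCG00140 below, did not reach an unadjusted p of 0.05. With each genome's own total as library size, which asks for changes within a genome, the median log2 fold changes became -0.060 and -0.018. This scaling by itself draws the fold changes of a genome towards 0 as a set, so these values are no separate result.

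Of 15 plastid members, ATCG00670 (ClpP) was the 1 whose normalised levels did not overlap between genotypes, and of 25 mitochondrial members ATMG01360 was the 1, against 12.2% of all genes tested, 6.62% with the wild type above and 5.57% with the transgenic libraries above. ATCG00670 was at 3.995, 3.38 and 3.00 CPM after TMM scaling in wild type replicates 1 to 3, against 2.08, 2.70 and 2.93 CPM in the transgenic ones. Its log2 fold change was -0.42 with a standard error of 0.30, which did not pass the test (edgeR, adjusted p = 0.789). ATMG01360 had 17, 15 and 11 counts in the wild type and 17, 23 and 22 in the transgenic replicates, a log2 fold change of 0.62 with a standard error of 0.41 (edgeR, adjusted p = 0.775).

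The smallest p among plastid members belonged to ATCG00630, with 25, 37 and 15 counts in the wild type and 51, 44 and 33 in the transgenic replicates. Wild type replicate 2 was above transgenic replicate 3, and the log2 fold change was 0.83 with a standard error of 0.42 (edgeR, adjusted p = 0.743). Among mitochondrial members it belonged to ATMG00030, the locus with the most counts, at a log2 fold change of 0.57 with a standard error of 0.33 (edgeR, adjusted p = 0.759). Neither passed the test. Other members among the 5 smallest p of each genome did not pass it either: ATCG00190 and ATCG00470 had log2 fold changes of 0.59 and 0.51 with standard errors of 0.49 and 0.57, and ATMG00110 and ATMG00670 of 0.78 and 0.43 with standard errors of 0.62 and 0.41 (edgeR, adjusted p from 0.810 to 0.873).

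**Figure D3:**
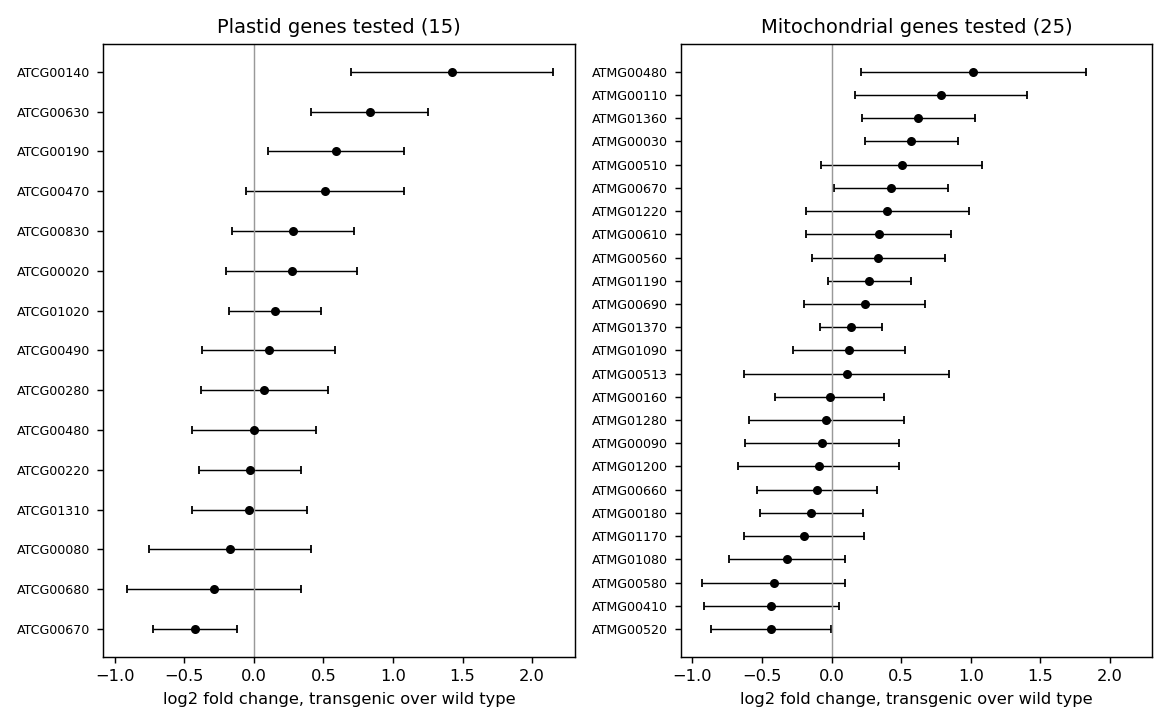
Log2 fold change of transgenic over wild type (horizontal axis) with its standard error for the 15 plastid and 25 mitochondrial genes tested with edgeR (vertical axis), ordered by size. The values lie between -0.42 and 1.42 in the plastid and between -0.44 and 1.02 in the mitochondrial set, and none passed the test.

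The largest fold change among the members tested in each genome belonged to a locus that varied much within a genotype. ATMG00480, ATP synthase subunit 8 by its note, had 27, 3 and 2 counts in the wild type and 26, 8 and 26 in the transgenic replicates. The libraries thus fell into a high set, wild type replicate 1 with transgenic replicates 1 and 3, and a low set of the other 3, across both genotypes. Its log2 fold change was 1.02 with a standard error of 0.81 (edgeR, adjusted p = 0.812), and it ran from 0.53 to 2.99 with 1 library left out. At 2.99, without wild type replicate 1, it was the 1 of 44 members tested with an unadjusted p under 0.01, against 0.656% of all genes in that fit, and its adjusted p was 0.9996 (edgeR). ATCG00140 had 12, 3 and 2 counts in the wild type and 11, 8 and 24 in the transgenic replicates. The same libraries were its highest, but without a clear gap, since transgenic replicates 1 and 2 had 11 and 8 counts. Its log2 fold change was 1.42 with a standard error of 0.73 (edgeR, adjusted p = 0.743), and it ran from 0.87 to 2.50 with 1 library left out.

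The chromosome 2 genes that copy the mitochondrial genome had counts close to those of some members and unlike those of others. In the count tables, 94 genes of chromosome 2 lay for at least 90% of their length in stretches copied from an organelle genome, between positions 3239693 and 3503476, and 2 more lay on other chromosomes. These 96 genes had 3305 counts over the 6 libraries. Their summed level was 37.7, 51.1 and 36.7 CPM in the wild type and 34.3, 33.8 and 44.5 CPM in the transgenic replicates. As for the mitochondrial genome itself, wild type replicate 2 was the highest library of its genotype and transgenic replicate 3 of its own.

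The notes pair 44 mitochondrial members with such a copy, and these members held 35.8% of all mitochondrial counts. Of 264 pairs of values, 1 for each pair of genes with a count and each library, 103 were equal, but 48 of these were 0 in both genes. Of the 216 others, 55 were equal and 113 differed by no more than 2 counts, which low counts alone bring close. In the 9 pairs whose genes both had a mean of at least 10 counts, 6 of 54 values were equal and 19 differed by no more than 2 counts. ATMG00480 is among these 9 pairs, and its copy AT2G07707, identical to atp8 in the stretch printed above, had 25, 2 and 2 counts in the wild type and 23, 8 and 25 in the transgenic replicates, never more than 3 counts away and high and low in the same libraries. ATMG00210, ribosomal protein L5, and its copy AT2G07725 had equal counts in all 6 libraries.

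Other pairs were less alike. ATMG01080 and its copy AT2G07671, identical over the 225 bases of atp9, had means of 33.3 and 32.2 counts and differed by up to 9 in a library. ATMG01190 was below its copy AT2G07698 in all 6 libraries, with means of 42.2 and 51.8 counts, and ATMG00180 was above its copy AT2G07815 in all 6, with 52.2 and 36.3. ATMG00900 had a mean of 0.667 counts, equal in all 6 libraries to that of AT2G07771, the identical copy of ccmC, while AT2G07681, which holds the copy with 1 differing base and is 4838 bases long, had a mean of 6.33. How reads that fit more than 1 place were counted is not given in the sources used here, so the counts of these members and of their copies are uncertain in the same way.

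**Figure D4:**
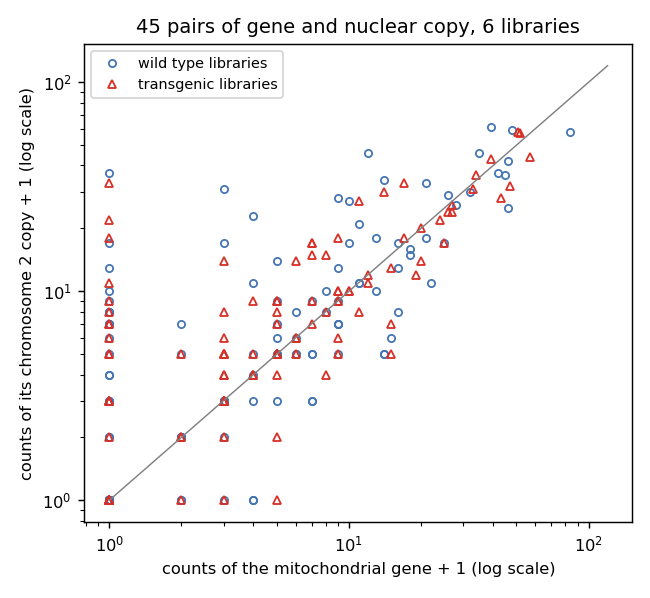
Counts of a chromosome 2 gene against counts of the mitochondrial gene that its note cites, both plus 1 on logarithmic axes, for 45 pairs in each of 6 libraries (wild type, blue circles; transgenic, red triangles). The grey line marks equal counts, and of the 264 values of pairs with a count 103 lie on it, 48 of them at 0 counts in both genes.

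Without the 44 members that a note pairs with such a copy, the mitochondrial difference was 4.33 CPM (transgenic minus wild type) and remained within the spread (two-sided exact permutation test, p = 0.4; n = 3 each). The members left in were not searched for copies by sequence, and some of them may have one. Among plastid IDs with at least 6 counts in all, 2 pairs had the same counts in each library. ATCG00860 and ATCG01280 each had 0, 1 and 4 counts in the wild type and 2, 6 and 2 in the transgenic replicates. ATCG00890 and ATCG01250 each had 2, 0 and 0 counts in the wild type and 4, 2 and 0 in the transgenic replicates.

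Nuclear genes that act on these genomes were read from a list of 9 organelle RNA polymerases and sigma factors, the latter being the nuclear subunits that direct the bacterial-type polymerase of the plastid to promoters. All 9 were tested, 3 had a higher and 6 a lower estimate in the transgenic buds, 0 had an adjusted p under 0.05 (edgeR), and 2 were lower at an unadjusted p under 0.05, against 4.26% of all genes. RPOTp, the phage-type polymerase of plastids, was at 19.3, 21.5 and 18.9 CPM in wild type replicates 1 to 3, against 16.8, 14.9 and 14.3 CPM in the transgenic ones. Its transgenic libraries all lay below the wild type libraries, a separation seen in 6.62% of all genes tested. Its log2 fold change was -0.37 with a standard error of 0.16 (edgeR, adjusted p = 0.722). SIG1, the other of these 2 genes, was at 6.895, 2.85 and 9.425 CPM in wild type replicates 1 to 3, against 2.965, 3.64 and 3.36 CPM in the transgenic ones. Wild type replicate 2 was the lowest of all 6 libraries, so the genotypes overlapped. SIG1 had a log2 fold change of -0.95 with a standard error of 0.41 (edgeR, adjusted p = 0.722). SIG4 separated the other way, with the transgenic libraries above, as in 5.57% of all genes tested. It was at 7.73, 5.93 and 7.96 CPM in wild type replicates 1 to 3, against 12.0, 10.1 and 8.16 CPM in the transgenic ones. The log2 fold change of SIG4 was 0.48 with a standard error of 0.23 (edgeR, adjusted p = 0.737).

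Nuclear markers of green tissue and of the clock also varied between libraries. The 11 green tissue markers, among them subunits of Rubisco and of the light-harvesting complexes, summed to 39702, 40494 and 46396 CPM in the wild type and to 53409, 48772 and 36042 CPM in the transgenic replicates. All 11 had a higher estimate in the transgenic buds, against 47.9% of all genes, and 0 had an unadjusted p under 0.05 or an adjusted p under 0.05 (edgeR). These sums did not follow the plastid share: among the wild type libraries, replicate 3 was the highest in the summed markers and the lowest in the plastid share. Single markers differed in this. Among the wild type libraries after TMM scaling, the light-harvesting genes LHCB1.1, LHCB1.2, LHCB1.3 and LHCA1, and RCA, were highest in replicate 3. The Rubisco genes RBCS1B, RBCS2B and RBCS3B, and PSAD1, were lowest in that library, while RBCS1A and PSBO1 lay between. LHY, a clock gene that peaks at dawn, was at 1.03, 0.150 and 32.4 CPM in wild type replicates 1 to 3, against 2.48, 6.48 and 0.143 CPM in the transgenic ones. With the difference between LHY and TOC1, an evening gene of the clock, as a covariate, 0 members of either genome passed an adjusted p of 0.05 (edgeR) or an unadjusted p of 0.01.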

How the data were processed

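Counts per gene of 3 wild type and 3 transgenic libraries were used as deposited. The authors used HISAT2 to align the reads with the Arabidopsis genome (TAIR10 in the submitters' processing notes) and counted them per gene with featureCounts. The sources used here give no version, strand or treatment of multiply mapped reads. Of the counts from 1 to 20, between 75.5% and 78.0% were even in each library.

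Shares are counts of a genome as CPM of the library total, compared by two-sided exact permutation tests. Wilson intervals and floors of 3 counts cover counting error only, and are too narrow even for that if the mates of a fragment were counted apart, which the sources used here do not state. Libraries of 1 genotype were no duplicates (chi-square per degree of freedom from 14.7 to 52.8). Genes were filtered with filterByExpr by genotype, scaled by TMM and tested with edgeR 4.0.16 (quasi-likelihood, R 4.3.3), genotype being the only term, with adjustment over 18642 genes. DESeq2 1.42.0, limma voom (limma 3.58.1), edgeR's older quasi-likelihood method, RLE factors, other filters and scalings, a clock covariate and leaving out each library were alternatives.

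Copies were searched with megablast (BLAST+ 2.17.0) of the nuclear chromosomes against the organelle genomes of TAIR10.1, whose mitochondrial sequence may differ from that of the authors' build, and were aligned with Biopython 1.88. Sequences are from RefSeq, TAIR10.1. Figures: matplotlib 3.10.9, Python 3.11.15.

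Members and lists were chosen with earlier results of these data known. The genes named are the 8 with the most counts and the 5 with the smallest p in each genome, members with a name in the notes, and loci chosen after their values were seen: those that their copies single out, and ATCG00280, which entered the first 8 in 1 genotype. A rule by counts per length and lists of organelle genes by function were planned but not used, since the reference gives most of these IDs neither a length nor a name. The replicate numbers did not pair the libraries. Their treatment is described with the alternatives.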

Additional observations from a re-analysis of the deposited data

How the results depend on the processing

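Across the alternatives, 0 members of either genome passed an adjusted p of 0.05 (edgeR, DESeq2 and limma voom), and at an unadjusted p of 0.01 the count stayed at 0 except that it was 0 to 1 for mitochondrial genes when 1 library was left out, the 1 being ATMG00480 without wild type replicate 1. The share differences ran from -2.93 to 7.42 CPM for the plastid and from -1.51 to 10.01 CPM for the mitochondrial genome when 1 library was left out, and the mitochondrial difference was 0.888 CPM without the 3 loci with the most counts. The plastid median log2 fold change ran from -0.15 to 0.33 and the mitochondrial one from 0.11 to 0.27 with 1 library left out. Replicate numbers were shared between genotypes, but same-numbered libraries did not deviate together (r = -0.076, -0.098 and -0.351 across genes). With the replicate block 0 members were called, the share differences were unchanged at 3.599 and 3.89 CPM (exact sign-flip test, p = 0.75 for both), and ATCG00480 became -0.039 and ATCG01310 0.015. Other fold changes near 0 changed sign, and the cause was not tested. ATCG00480 became -0.0032 with at least 10 counts in every library, -0.088 with limma voom, -0.070 with the clock covariate and -0.17 with the plastid total as library size. ATCG01310 became 0.064 with limma voom and ATMG00160 0.012 with the clock covariate. With the genome's own total, ATCG00490 became -0.060, ATCG01020 -0.015 and ATMG01370 -0.016. With 1 library left out, the range was -0.39 to 0.60 for ATCG00020, -0.31 to 0.14 for ATCG00220, -0.45 to 0.30 for ATCG00480, -0.46 to 0.38 for ATCG00490, -0.22 to 0.39 for ATCG01020, -0.33 to 0.16 for ATCG01310, -0.18 to 0.13 for ATMG00160, -0.34 to 0.31 for ATMG00180, -0.53 to 0.25 for ATMG00660 and -0.10 to 0.62 for ATMG00690. Leaving out rRNA entries was not run, since member IDs could not be matched to rRNA genes and 0 of the matched rows were annotated as rRNA, and copies of members were found through the notes, chosen after seeing the data, in place of a search by member sequence. The older edgeR method and the shares without the first 3 loci were also added after seeing the data. Depth limits all of this: 21 plastid and 45 mitochondrial members had a mean under 1 count per library.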

Other observations

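Some mitochondrial loci are annotated through the notes with functions that are not those of a respiratory gene. ATMG00280, with a catalytic domain of the Rubisco large chain, had 1 count in wild type replicate 1, 4 counts in transgenic replicate 2 and 0 in the other libraries. ATMG00370, given as a Ycf1 protein, had 10, 20 and 8 counts in the wild type and 6, 8 and 6 in the transgenic replicates, and its copy AT2G07739 had more counts in all 6 libraries, with means of 9.67 and 21.0. ATMG01110, given as an RNA-dependent RNA polymerase of a mitovirus, had 0, 8 and 6 counts in the wild type and 2, 2 and 1 in the transgenic replicates. The counts of all 3 overlapped between genotypes, those of ATMG00370 only by a tie at 8 counts.

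ATMG00560, whose note gives an OB-fold-like protein, had 9, 11 and 13 counts in the wild type and 10, 13 and 16 in the transgenic replicates, while its copy AT2G07715 had 26, 45 and 33 counts and 26, 29 and 32. The copy was the higher one in all 6 libraries. The share of even values among counts from 1 to 20 was 50% to 69.5% in mitochondrial and 61.8% to 70.2% in plastid genes, below that of all genes in every library.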
